A study of Mus musculus with 6 samples.

Results

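The 10 genes described here encode the transcription factor NF-kappaB and its inhibitors: the 5 subunits (Rela, Rel, Relb, Nfkb1 and Nfkb2) and 5 inhibitors (Nfkbia, Nfkbib, Nfkbie, Nfkbiz and Tnfaip3). They were taken by gene symbol from a table of 25124 gene rows, in which each of the 10 had 1 row. RNA was sequenced from colonic lamina propria macrophages, isolated by cell sorting from C57BL/6 mice described as 8 weeks old. There were 3 libraries from mice that overexpress E4BP4 specifically in macrophages and 3 from wild type mice. E4BP4 is the transcription factor that Nfil3 encodes, and the sources used here do not name the promoter that drives the transgene. Both groups went through the same colitis protocol, with dextran sulfate sodium at 2.0% in the drinking water for 7 days, then 7 days without it and collection on day 14. The genotype field of transgenic replicates 2 and 3 ends in another digit than E4BP4, so groups follow the titles. Whether each library stands for its own mouse is not stated in the labels, so the spread that enters the p-values is that of these 6 libraries and may be technical.

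NF-kappaB proteins bind DNA as pairs of subunits. In resting cells, inhibitors of the I-kappaB family hold the pairs in the cytoplasm. Toll-like receptors, the interleukin 1 receptor and tumour necrosis factor receptors activate a kinase complex that marks these inhibitors for degradation, and the freed pairs then switch on cytokine, chemokine and survival genes. Among the genes they switch on are several of their own inhibitors and subunits, which gives the pathway its feedback loops, and macrophages are a main site of this response in the gut.

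Among the inhibitors, Tnfaip3 was 25.3% higher and Nfkbiz 9.32% higher in transgenic than in wild type macrophages, while Nfkbie was 11.1% lower. Among the subunits, Nfkb2 was 16.0% lower and Rel 8.02% lower. Nfkbia, the most abundant transcript of the set, averaged 603.2 ± 12.5 TPM in transgenic and 602.6 ± 4.64 TPM in wild type libraries (SD, n = 3 each). TPM is a transcript level scaled for transcript length and library depth, so levels can be compared between genes. All 10 genes passed the filter of at least 1 TPM on average in a group. In limma's test across all genes (adjusted p below 0.05), 2 of the 10 were higher and 3 lower, against 8.71% higher and 13.2% lower of 12633 tested genes. Genes with a mean level within the range of these 10 (40.5 to 603 TPM) were called more often: 46.3% of 2092, with 15.5% higher and 30.8% lower. A count of 5 called among 10 is close to that share. The median log2 fold change was -0.08 over the 10 genes and -0.01 over all tested genes. Values did not overlap between the groups for 7 of the 10, against 39.3% of all tested genes. Of these 7, 2 lay higher in transgenic libraries and 5 lower, against 17.1% and 22.3% of all tested genes. No share of non-overlapping genes was computed for genes within the level range of these 10, which are well expressed.

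The files gave depth and sample identity as follows. Library totals in the headers were 17.2 to 18.9 M reads, and 79.5% to 81.3% of these reads could be recovered in gene rows. Each of the 10 genes had between 974 and 19598 reads in every library, and counting error was at most 3.20% of the level. Nfil3, the overexpressed gene, was at 133, 134 and 141 TPM in transgenic and 117, 120 and 119 TPM in wild type libraries (log2 fold change 0.19 ± 0.03 SE, limma adjusted p = 0.00261). This was only 14.4% higher in transgenic libraries, and whether reads of the transgene fall in this row was not tested. All 13 macrophage markers were detected, and 6 were called higher and 5 lower. Their summed level was 42983 to 43100 TPM in transgenic and 37930 to 38158 TPM in wild type libraries. Most of this sum came from Cd74 (means of 17931 TPM in transgenic and 13976 TPM in wild type libraries) and H2-Ab1 (7287 and 5893 TPM). Lyz2 went the other way (5945 and 6670 TPM), so the sum does not stand for all of these markers. Markers of other cells moved with the genotype. Neutrophil markers summed to 434 to 489 TPM in transgenic and 1026 to 1056 TPM in wild type libraries, with 7 of 10 tested markers lower. Most of this sum was S100a8 (means of 154 TPM in transgenic and 409 TPM in wild type libraries) and S100a9 (187 and 439 TPM). Csf3r (56.8 and 58.9 TPM), Cd177 and Padi4 were not called, so the sum does not stand for all neutrophil markers. Of that list, Mpo and Elane had at most 3 reads in a library, and no marker of any list was at 0 in all 6. Epithelial markers summed to 543 to 550 TPM in transgenic and 974 to 979 TPM in wild type libraries, with 7 of 12 lower and 1 higher. Car1 was the largest part of that sum and of its difference (means of 164 TPM in transgenic and 497 TPM in wild type libraries). Muc2 differed little (36.1 and 35.9 TPM) and Tff3 was higher (58.2 and 47.5 TPM), so this sum does not stand for all epithelial markers. Fibroblast markers (5 of 8 lower) summed to 116 to 121 TPM in transgenic and 161 to 163 TPM in wild type libraries. Endothelial markers (5 of 7 lower) summed to 33.7 to 38.0 TPM in transgenic and 52.5 to 56.6 TPM in wild type libraries. Dendritic cell markers (5 of 9 higher) summed to 112 to 122 TPM in transgenic and 80.8 to 86.8 TPM in wild type libraries. The largest part was Batf3 (means of 57.3 TPM in transgenic and 36.3 TPM in wild type libraries). Ccr7, which was not called, had a lower mean in transgenic libraries (19.3 and 22.0 TPM). T and NK cell markers (3 of 9 higher) summed to 138 to 149 TPM in transgenic and 125 to 130 TPM in wild type libraries, mostly from Cd4 (means of 89.6 and 87.4 TPM). B and plasma cell markers (1 of 8 higher, 1 lower) summed to 278 to 295 TPM in transgenic and 258 to 271 TPM in wild type libraries. Most of that sum was Jchain (means of 204 TPM in transgenic and 165 TPM in wild type libraries), while Sdc1 went the other way (10.9 and 29.1 TPM). The genes of this set are known to be expressed in most of these cell types as well. The part of these cells in the differences below was not tested, and in bulk samples fewer cells of a type and less RNA per cell cannot be told apart.

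The windows around the transcript starts are shown for the called genes that have an entry, and for Nfkbia, because these genes are known as targets of NF-kappaB themselves. RefSeq windows (GRCm38, the mm10 build) of 300 bases, from 250 before to 50 after the start, matched 7 of the 10 genes, and Nfkb1, Relb and Nfkbiz had no entry. Capitals mark matches to the 10-base kappaB consensus on either strand, and overlapping matches run together:
Tnfaip3, chr10:19015361-19015660, minus strand: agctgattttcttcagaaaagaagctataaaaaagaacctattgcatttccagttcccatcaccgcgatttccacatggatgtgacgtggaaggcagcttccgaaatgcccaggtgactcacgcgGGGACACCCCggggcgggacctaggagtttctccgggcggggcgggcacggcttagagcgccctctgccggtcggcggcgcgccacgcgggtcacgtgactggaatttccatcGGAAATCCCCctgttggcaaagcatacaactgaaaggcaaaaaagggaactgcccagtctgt
Nfkbia, chr12:55492598-55492897, minus strand: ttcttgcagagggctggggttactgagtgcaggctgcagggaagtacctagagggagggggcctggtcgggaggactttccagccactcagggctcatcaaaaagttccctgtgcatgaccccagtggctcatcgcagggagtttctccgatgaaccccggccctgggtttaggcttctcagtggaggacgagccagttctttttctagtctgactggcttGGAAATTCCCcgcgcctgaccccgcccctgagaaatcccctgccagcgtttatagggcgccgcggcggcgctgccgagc
Nfkbie, chr17:45555450-45555749, plus strand: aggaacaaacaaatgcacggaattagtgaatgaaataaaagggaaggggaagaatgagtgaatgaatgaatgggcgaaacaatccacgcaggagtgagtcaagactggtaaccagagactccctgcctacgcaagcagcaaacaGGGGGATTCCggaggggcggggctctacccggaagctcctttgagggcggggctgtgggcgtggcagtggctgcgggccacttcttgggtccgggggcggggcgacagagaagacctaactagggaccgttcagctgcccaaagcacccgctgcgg
Nfkb2, chr19:46305680-46305979, plus strand: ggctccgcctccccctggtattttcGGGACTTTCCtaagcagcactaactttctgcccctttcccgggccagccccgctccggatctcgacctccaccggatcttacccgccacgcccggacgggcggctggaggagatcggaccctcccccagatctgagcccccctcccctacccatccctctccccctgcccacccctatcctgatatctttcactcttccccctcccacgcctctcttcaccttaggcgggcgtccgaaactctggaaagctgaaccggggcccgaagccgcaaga
Rel, chr11:23770920-23771219, minus strand: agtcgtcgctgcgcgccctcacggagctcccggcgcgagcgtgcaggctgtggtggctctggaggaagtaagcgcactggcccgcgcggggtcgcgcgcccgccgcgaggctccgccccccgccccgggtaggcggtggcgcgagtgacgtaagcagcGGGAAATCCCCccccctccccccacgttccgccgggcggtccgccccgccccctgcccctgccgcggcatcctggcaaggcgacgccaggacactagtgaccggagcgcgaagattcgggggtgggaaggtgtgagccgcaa

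The kappaB consensus was found in the windows of 5 of the 7 genes (Tnfaip3, Nfkbia, Nfkbie, Nfkb2 and Rel), and no match was found in those of Rela and Nfkbib. Over the whole table, 8.46% of 32851 windows and 9.55% of 27025 genes held a match. Tnfaip3 had 2 separate matches, which begin 125 and 12 bases before the start. The match in Nfkbia begins 29 bases before the start, that in Nfkbie 106 bases before it, and that in Nfkb2 225 bases before the start of the counted transcript. Nfkb2 had 2 further windows at other transcript starts, both with matches, and Tnfaip3 had 1 further window, with no match. The nearer of these Nfkb2 windows overlaps that of the counted transcript, and 1 of its 2 matches is the same site. The element TTANGTAA, a core sequence bound by E4BP4 and its relatives, was searched on both strands and occurred in 2.32% of all windows, and in 0 of the 10 windows of these 7 genes. A match describes these letters only. The genes with matches included 1 that was higher in transgenic libraries, 3 that were lower and 1 that was not called.

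**Figure D1:**
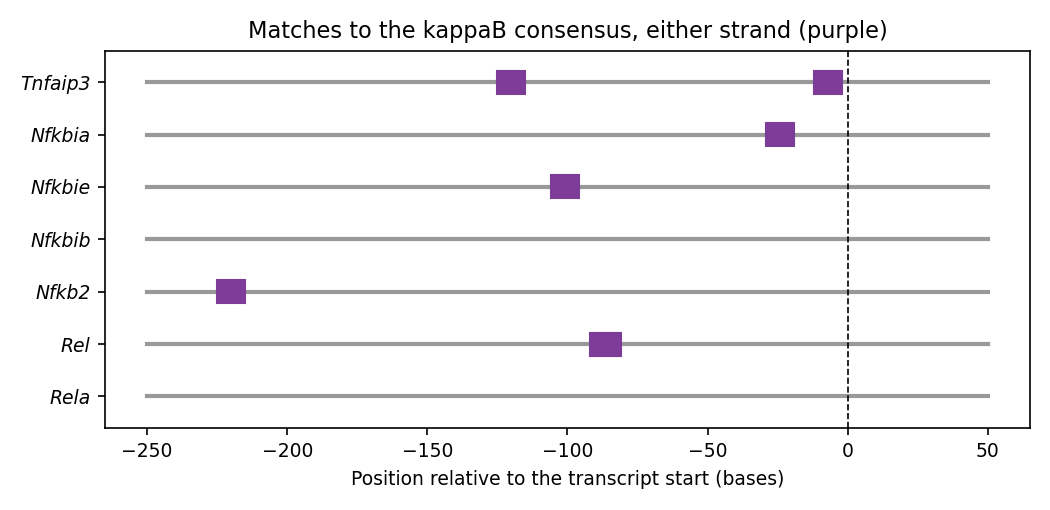
Positions of matches to the kappaB consensus on either strand (purple boxes) in the window from 250 bases before to 50 bases after the start of the counted transcript (dashed line), 1 row per gene. Tnfaip3 had 2 separate matches, Nfkbia, Nfkbie, Nfkb2 and Rel a match each (2 overlapping ones in Rel), and Nfkbib and Rela no match.

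Among the inhibitors, Tnfaip3 encodes A20, a ubiquitin-editing enzyme that switches off signalling upstream of the kinase complex. Its row covers exons of NM_009397 on chromosome 10 at 19000910 to 19015410 (minus strand, mm10). Tnfaip3 was at 338, 334 and 334 TPM in transgenic libraries and at 271, 264 and 268 TPM in wild type libraries. The lowest transgenic library lay well above the highest wild type library. The log2 fold change on the log2(TPM + 1) scale was 0.32 ± 0.02 (SE, limma adjusted p = 2.13e-05), with a 95% interval of 21.5% to 29.0% higher. It stayed called whichever library was left out, with a limma adjusted p of 0.000166 to 0.00029. This was the largest difference among the 10 genes.

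Nfkbiz encodes I-kappaB-zeta, a nuclear member of the family that is itself induced and is needed for the transcription of a set of secondary response genes. Its row, on chromosome 16 at 55811377 to 55822138 (minus strand), covers the exons of NM_001159394. Nfkbiz was at 358, 354 and 365 TPM in transgenic libraries and at 335, 324 and 327 TPM in wild type libraries. The groups did not overlap, and the log2 fold change was 0.13 ± 0.02 (SE, limma adjusted p = 0.00409). The call was kept without any 1 library (limma adjusted p 0.00669 to 0.0199) and was lost when the trend of variance with level was left out of the model (limma adjusted p = 0.0799).

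Nfkbie encodes I-kappaB-epsilon, a cytoplasmic inhibitor that takes part in delayed negative feedback. It lies on chromosome 17 at 45555700 to 45563168 (plus strand). Nfkbie was at 151, 155 and 154 TPM in transgenic libraries and at 180, 169 and 169 TPM in wild type libraries. All transgenic values were below all wild type values, and wild type replicate 1 was the highest of the 6. The log2 fold change was -0.17 ± 0.03 (SE, limma adjusted p = 0.00627). Without wild type replicate 1 it was -0.14 (limma adjusted p = 0.012). Without the variance trend the limma adjusted p was 0.0538.

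Nfkbia encodes I-kappaB-alpha, the classical cytoplasmic inhibitor and the fastest feedback gene of the pathway. It lies on chromosome 12 at 55489409 to 55492647 (minus strand). Nfkbia was at 589, 609 and 612 TPM in transgenic libraries and at 601, 608 and 599 TPM in wild type libraries. The transgenic libraries spanned the whole range of the wild type ones. The log2 fold change was 0.00 ± 0.02 (SE, limma adjusted p = 0.971), and its 95% interval ran from 2.89% lower (-2.89%) to 3.17% higher. Nfkbib encodes I-kappaB-beta, a cytoplasmic inhibitor with slower turnover, on chromosome 7 at 28759038 to 28766644 (minus strand). Nfkbib was at 71.6, 73.9 and 73.8 TPM in transgenic libraries and at 75.0, 74.1 and 80.6 TPM in wild type libraries. The groups did not overlap, though the gap was under 1 TPM, and the gene was not called (log2 fold change -0.07 ± 0.04 SE, limma adjusted p = 0.276, 95% interval -10.2% to 1.68%).

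**Figure D2:**
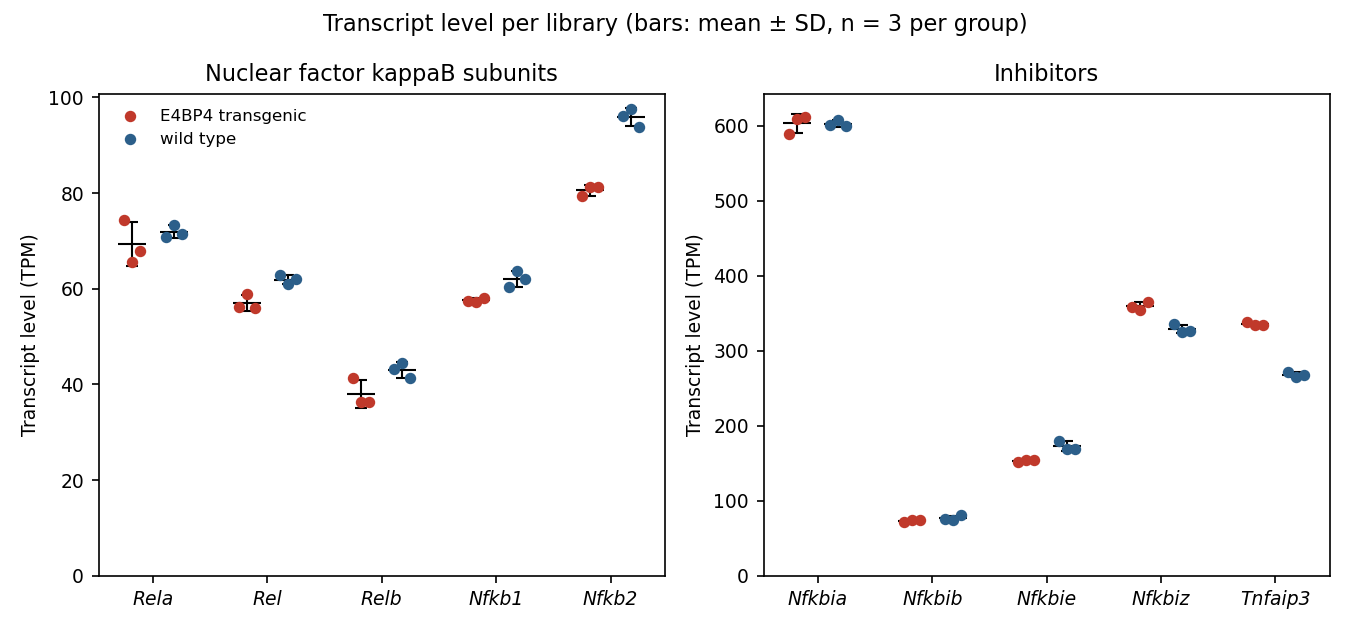
Transcript level in TPM of each gene in each library, transgenic (red) left of wild type (blue), with mean and SD (n = 3 per group). The 3 transgenic libraries lie above the 3 wild type ones for Tnfaip3 and Nfkbiz and below them for Nfkb2, Rel, Nfkb1, Nfkbie and Nfkbib, while the groups overlap for Nfkbia, Rela and Relb.

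Among the subunits, Nfkb2 and Rel were called. Nfkb2 encodes p100, which is processed to p52 in the noncanonical branch of the pathway and also acts as an inhibitor in its long form. Its row covers exons of NM_001177370 on chromosome 19 at 46305930 to 46312090 (plus strand). Nfkb2 was at 79.3, 81.2 and 81.2 TPM in transgenic libraries and at 96.2, 97.5 and 93.9 TPM in wild type libraries. The groups were far apart relative to their spread, with a log2 fold change of -0.25 ± 0.03 (SE, limma adjusted p = 0.000685) and a 95% interval of -19.5% to -11.9%. The call was kept without any 1 library (limma adjusted p 0.00232 to 0.00421). In the GENCODE annotation, 299 of 3942 exon bases of Nfkb2 also belong to Psd on the opposite strand. The library kit is not described as keeping strand, so reads there could not be told apart, and the Psd row stood at 10.8 TPM in transgenic and 12.7 TPM in wild type libraries. None of the other 9 genes shared exon bases with another gene in that annotation.

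Rel encodes c-Rel, a subunit with a transactivation domain that is prominent in immune cells. It lies on chromosome 11 at 23736850 to 23770969 (minus strand). Rel was at 56.1, 58.8 and 55.9 TPM in transgenic libraries and at 62.8, 61.0 and 62.0 TPM in wild type libraries. The groups did not overlap, with transgenic replicate 2 nearest to wild type. The log2 fold change was -0.12 ± 0.03 (SE), and the call was near the threshold (limma adjusted p = 0.0412). It was lost without transgenic replicate 1 (0.111) or 3 (0.126) and without wild type replicate 1 (0.106), 2 (0.0675) or 3 (0.0968), all limma adjusted p. It was kept without transgenic replicate 2 (limma adjusted p = 0.0395). It was also lost with upper-quartile scaling (limma adjusted p = 0.0924) and with median-ratio scaling of the libraries (limma adjusted p = 0.0674).

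Nfkb1, Relb and Rela were not called. Nfkb1 encodes p105, the precursor of p50, the most common partner of Rela in the canonical branch, on chromosome 3 at 135584655 to 135691547 (minus strand). Nfkb1 was at 57.5, 57.2 and 58.2 TPM in transgenic libraries and at 60.3, 63.6 and 62.0 TPM in wild type libraries. The groups did not overlap, yet the log2 fold change of -0.10 ± 0.03 (SE) did not pass (limma adjusted p = 0.0592, 95% interval -11.7% to -1.88%). Relb encodes the partner of p52 in the noncanonical branch, on chromosome 7 at 19606222 to 19629438 (minus strand). Relb was at 41.3, 36.2 and 36.4 TPM in transgenic libraries and at 43.2, 44.5 and 41.2 TPM in wild type libraries. Transgenic replicate 1 lay just within the wild type range, and the log2 fold change was -0.18 ± 0.06 (SE, limma adjusted p = 0.0683). Without transgenic replicate 1 it was -0.24 (limma adjusted p = 0.0166).

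Rela encodes p65, the main transactivating subunit of the canonical branch, on chromosome 19 at 5637541 to 5648134 (plus strand). Rela was at 74.4, 65.6 and 67.9 TPM in transgenic libraries and at 70.8, 73.4 and 71.4 TPM in wild type libraries. Transgenic replicate 1 was the highest of the 6 libraries and the other two transgenic ones were the lowest. The log2 fold change was -0.05 ± 0.05 (SE, limma adjusted p = 0.468), with a 95% interval of -10.8% to 4.01%. It was -0.11 without transgenic replicate 1 (limma adjusted p = 0.0947) and -0.016 without transgenic replicate 2 (limma adjusted p = 0.859). Transgenic replicate 1 was thus the highest transgenic library for Rela and Relb. For each of the 7 genes whose groups did not overlap, an exact two-sided permutation of the library labels gave p = 0.1, and no smaller value is possible with 3 libraries in each group.

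The authors' deposited table compares the same libraries over rows whose length is the whole gene span, introns included. It calls 20.9% of its 24421 rows at an adjusted p below 0.05 (9.59% higher, 11.3% lower in transgenic). Of these rows, 3537 have no fold change in that table. Its fold change column names wild type first, but a positive value means higher in transgenic libraries, as its own library columns show. In the authors' deposited table, 2 of the 10 genes were called higher and 6 lower. The share over all rows covers genes of every level, while these 10 are well expressed. No share for rows of similar level was computed for that table. The 5 genes called by limma had the same sign there: Tnfaip3 at 0.28, Nfkbiz at 0.10, Nfkb2 at -0.31, Nfkbie at -0.15 and Rel at -0.13 in the authors' deposited table. That table also called Nfkb1 (-0.15, adjusted p = 1.51e-06), Relb (-0.15, adjusted p = 0.00315) and Nfkbia (-0.06, adjusted p = 0.00216). The authors' deposited value for Nfkbia lies below the lower end of limma's interval (-0.04 on the log2 scale). Rela (-0.09, adjusted p = 0.0797) and Nfkbib (-0.00, adjusted p = 0.989) were not called in the authors' deposited table either. For Nfkb2, Nfkbib, Nfkbie and Nfkbiz the 2 tables name different transcripts, and for Nfkbiz the span extends to 55838641.

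**Figure D3:**
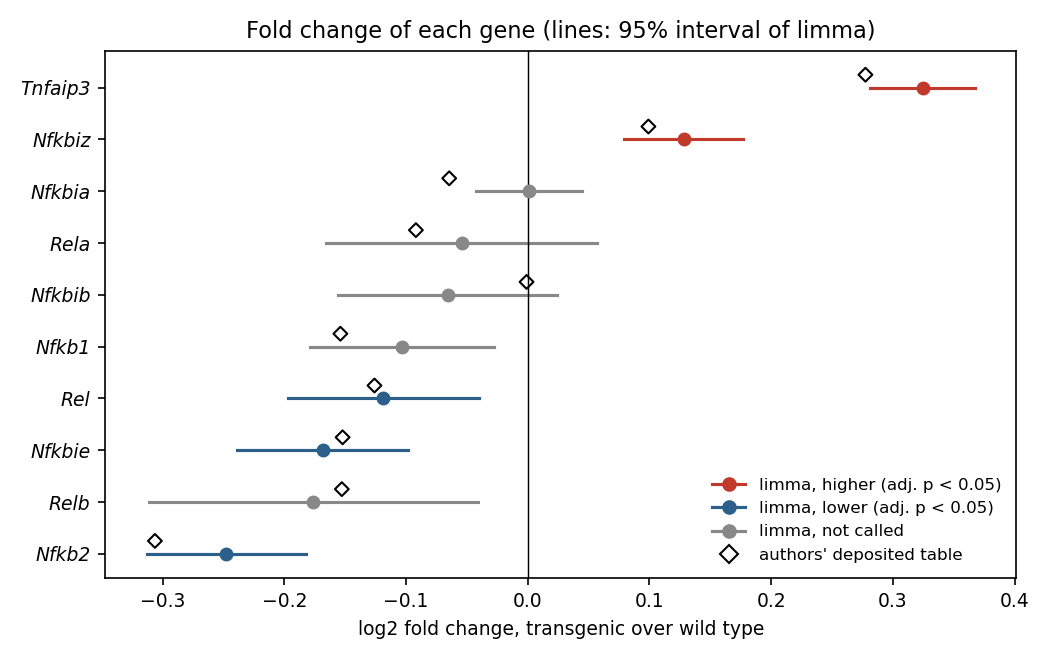
Log2 fold change of transgenic over wild type for each gene, with limma's estimate and 95% interval (filled circles and lines, colour by call) and the authors' deposited value (open diamonds). Limma called Tnfaip3 and Nfkbiz higher and Rel, Nfkbie and Nfkb2 lower, and the authors' deposited value for Nfkbia (-0.06) lies left of limma's interval.

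The order of levels was the same in both groups. In transgenic libraries Nfkbia (603 TPM) was followed by Nfkbiz (359), Tnfaip3 (335), Nfkbie (153), Nfkb2 (80.6), Nfkbib (73.1), Rela (69.3), Nfkb1 (57.6), Rel (56.9) and Relb (38.0), all in TPM. In wild type libraries the same order ran from Nfkbia (603 TPM) through Nfkbiz (329), Tnfaip3 (268), Nfkbie (173), Nfkb2 (95.8), Nfkbib (76.6), Rela (71.9), Nfkb1 (62.0) and Rel (61.9) to Relb (43.0). Nfkb1 and Rel did not differ beyond their spread in either group, nor did Nfkbib and Rela in transgenic libraries. All 10 genes ranked in the upper part of tested genes by level, from percentile 82.6 (Relb) to percentile 99.2 (Nfkbia).

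The summed level of the 5 subunits was 309, 299 and 299.5 TPM in transgenic libraries and 333, 340.03 and 331 TPM in wild type libraries. That of the 5 inhibitors was 1508, 1526 and 1539 TPM in transgenic and 1462, 1439 and 1443 TPM in wild type libraries. Inhibitor transcripts thus outnumbered subunit transcripts 4.89, 5.10 and 5.14 times in transgenic libraries and 4.39, 4.23 and 4.37 times in wild type libraries. These sums and ratios are given as descriptions, with no test. The higher inhibitor sum in transgenic libraries came from Tnfaip3 and Nfkbiz, while Nfkbia differed little and Nfkbie and Nfkbib had lower means. The grouping also places the nuclear I-kappaB-zeta with the inhibitors, and p100, which can act as an inhibitor, with the subunits. Within the set, the ratio of Tnfaip3 to Nfkbia was 0.556 ± 0.0148 in transgenic and 0.444 ± 0.00855 in wild type libraries (SD, n = 3 each). The ratio of Nfkb2 to Nfkb1, the precursors of the noncanonical and canonical branches, was 1.40 ± 0.0205 in transgenic and 1.55 ± 0.0428 in wild type libraries (SD, n = 3 each). Nfkb2 made up 25.7% to 27.2% of subunit transcripts in transgenic and 28.4% to 28.9% in wild type libraries, and Rela 21.9% to 24.1% in transgenic and 21.2% to 21.6% in wild type libraries.

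**Figure D4:**
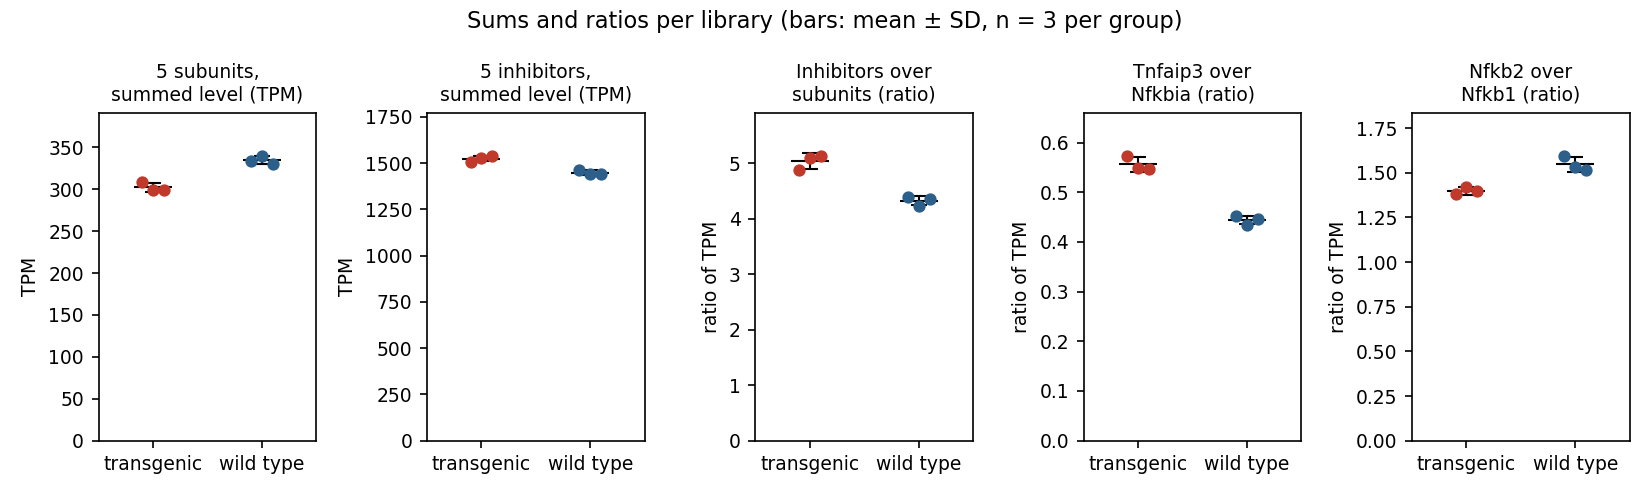
Summed levels of the 5 subunits and of the 5 inhibitors (TPM) and ratios of levels per library, transgenic (red) left of wild type (blue), with mean and SD (n = 3 per group). Inhibitors over subunits stood at 4.89 to 5.14 in transgenic and 4.23 to 4.39 in wild type libraries, and the groups do not overlap in any of the 5 panels. Of the inhibitors, only Tnfaip3 and Nfkbiz were called higher.

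The rest of the pathway was read from 4 lists. Of 14 other negative regulators, 2 were higher and 2 lower in transgenic libraries (median log2 fold change -0.06). This is 14.3% each way, near the 8.71% higher and 13.2% lower of all tested genes. Bcl3, which encodes a nuclear I-kappaB-like partner of p50 and p52, fell to 67.2 ± 1.32 TPM in transgenic libraries, against 85.9 ± 1.78 TPM in wild type (SD, n = 3 each; limma adjusted p = 0.000182). Nfkbid, which encodes the nuclear I-kappaB-NS, was at 220.3 ± 2.83 TPM in transgenic and 206 ± 7.09 TPM in wild type libraries (SD, n = 3 each; limma adjusted p = 0.0492). Tnip1, encoding an A20-binding inhibitor, was at 36.2 TPM in transgenic and 41.7 TPM in wild type libraries (limma adjusted p = 0.0335), and Pdlim2, a ubiquitin ligase for Rela, at 15.0 TPM in transgenic and 12.3 TPM in wild type libraries (limma adjusted p = 0.0252). Otulin and Tnip2 were not called (limma adjusted p = 0.0818 and 0.0897). The count of higher genes was 0 without transgenic replicate 1, transgenic replicate 3 or wild type replicate 3, and 1 without any other library. The count of lower genes was 1 without transgenic replicate 1 or 2 or wild type replicate 2 or 3.

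Of 34 kinases and adaptors, 3 were higher and 5 lower (median log2 fold change -0.01), close to the shares over all tested genes. Chuk, Ikbkb and Ikbkg, the 3 subunits of the I-kappaB kinase complex, were not called: they were at 18.5, 50.6 and 7.05 TPM in transgenic libraries and at 17.6, 49.4 and 6.44 TPM in wild type libraries (limma adjusted p = 0.453, 0.59 and 0.44). They were named after their values were seen. Myd88, the adaptor of Toll-like and interleukin 1 receptors, fell to 81.7 ± 3.86 TPM in transgenic libraries, against 98.3 ± 2.95 TPM in wild type (SD, n = 3 each; limma adjusted p = 0.00323). Ikbke, an I-kappaB kinase relative, Traf1, an adaptor, and Malt1, a paracaspase, were lower, with log2 fold changes of -0.25, -0.36 and -0.25 (limma adjusted p = 0.00125, 0.00528 and 0.0111). Traf5, another adaptor of tumour necrosis factor receptors, and the kinase gene Map3k8 were higher, with log2 fold changes of 0.48 and 0.26 (limma adjusted p = 0.00537 and 0.00697). The remaining 2 calls were Birc3, a ubiquitin ligase (0.12), and Irak3, an inhibitory relative of the receptor kinases (-0.40), named after their values were seen.

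Of 21 receptors, 4 were higher and 7 lower (median log2 fold change 0.01). These shares, 19.0% and 33.3%, stand beside 8.71% and 13.2% of all tested genes and are close to the 15.5% and 30.8% of genes within the level range of the set. Cd14, the lipopolysaccharide co-receptor, fell to 1457 ± 38.7 TPM in transgenic libraries, against 1785 ± 24.9 TPM in wild type (SD, n = 3 each; limma adjusted p = 5.96e-05). Tlr2, a receptor for bacterial lipopeptides, and Ltbr, which feeds the noncanonical branch, were lower, with log2 fold changes of -0.26 and -0.30 (limma adjusted p = 0.000237 and 0.00215). Il1rap and Il1r1, the chains of the interleukin 1 receptor, were lower, at 3.54 and 1.30 TPM in transgenic and 5.71 and 2.41 TPM in wild type libraries (limma adjusted p = 0.00828 and 0.0117). The endosomal receptor genes Tlr9 and Tlr7, for DNA and RNA, were higher, with log2 fold changes of 0.38 and 0.18 (limma adjusted p = 0.00126 and 0.02). The count of higher receptors was 2 without transgenic replicate 1 or wild type replicate 3 and 1 without transgenic replicate 3 or wild type replicate 1, and the call of Tlr7 was lost without transgenic replicate 1 or 3 or wild type replicate 1.

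Target genes of NF-kappaB moved both ways. Of 38 tested, 13 were higher and 15 lower (median log2 fold change -0.05), and 10 were not called. As shares of the tested targets these were 34.2% higher and 39.5% lower, against 8.71% and 13.2% of all tested genes and 15.5% and 30.8% of those within the level range of the set. Among those lower in transgenic libraries were Lcn2 (-2.72), Saa3 (-2.63), Cxcl3 (-2.13), Nos2 (-2.02) and Mmp9 (-1.12), all log2 fold changes, against a largest difference of 0.32 among the 10 genes of the set. These 5 encode a siderophore-binding protein, an acute-phase protein, a neutrophil chemokine, inducible nitric oxide synthase and a gelatinase. They were named for their small unadjusted p. Ptges (-1.50) and Csf3 (-1.19), named after their values were seen, also had larger drops than Mmp9. Il1b, encoding interleukin 1 beta, fell to 2452 ± 14.04 TPM in transgenic libraries, against 2869 ± 8.29 TPM in wild type (SD, n = 3 each; limma adjusted p = 4.72e-06). Irf1, an interferon-responsive transcription factor gene, rose to 149 ± 2.71 TPM in transgenic libraries, against 107 ± 2.70 TPM in wild type (SD, n = 3 each; limma adjusted p = 2.9e-05). The highest log2 fold changes of the list were those of Il6 (1.34), Ccl5 (0.72) and Il12b (0.71), which encode cytokines and a chemokine, and they were named after their values were seen. The count of higher targets was 8 without transgenic replicate 2 or 3. Lcn2 is also known from neutrophils and epithelium, whose markers were lower in the same transgenic libraries, and their part in its difference was not tested. The part of other cells in the differences of the other targets was not tested either.

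**Figure D5:**
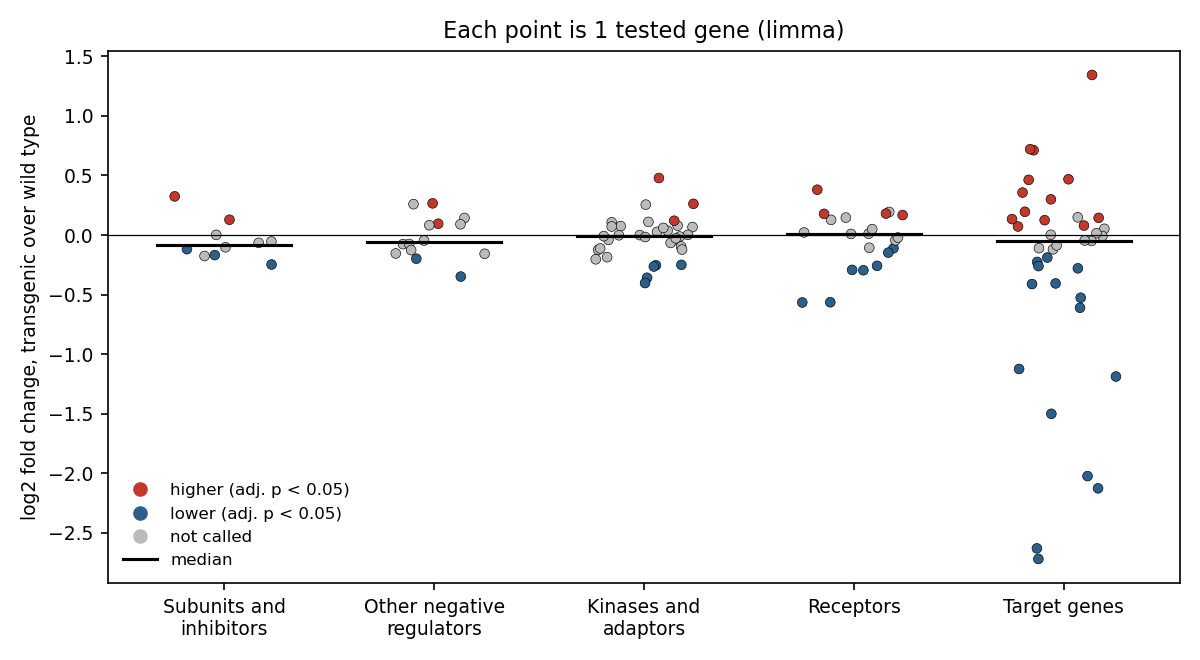
Log2 fold change of transgenic over wild type for each tested gene (points, red higher and blue lower at limma adjusted p below 0.05, grey not called) in the set of 10 and in 4 pathway lists, with list medians (bars). The set and the regulators, kinases and receptors lie between -0.57 and 0.48, while target genes extend from -2.72 to 1.34.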

How the data were processed

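RNA of sorted colon macrophages was sequenced in 6 libraries. Per the labels' protocols, libraries were made from 20 ng of RNA each, with selection for poly(A). Per the submitters' processing notes, bcl2fastq, STAR, HOMER 4.11.1 and DESeq2 were used with build mm10, with no order or settings stated. The authors deposited TPM for 25124 rows, 1 transcript per gene, per the file headers. Their second table holds log2 values and fold changes with p-values, raw and adjusted, deposited for 24421 rows, where each length is the gene's end less its start. In 3537 of these rows the fold change is missing. The deposited TPM columns sum to 543612 to 545319 per library, so levels are relative within this table.

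Limma-trend (limma 3.58.1, R 4.3.3) was run here on log2(TPM + 1) over 12633 genes that averaged 1 TPM or more in either group, genotype as the single term, and p-values were Benjamini-Hochberg adjusted over all of them. Fold changes on this scale understate those of low genes. Whole reads were recovered from TPM times exon length, which came in steps of a constant size per library for at least 99.9% of values of up to 1000 reads (tolerance 0.1 reads). A count of 0 allows up to 3 reads, or 0.113 to 0.122 TPM for 2000 bases, which covers counting error only. Between libraries of 1 group, chi-square over its degrees of freedom was 2.07 to 2.75. The test was also run on simulated data with the same dispersion for all genes, and its outcome there is not used as support here. The members, lists and tests were chosen with earlier results of these data known. Named genes are the 10 members, the 6 genes of each pathway list with the smallest unadjusted p (plus 1 called member of a direction with fewer than 2), Nfil3, and the 3 genes of at least 10 TPM most correlated with Nfkbia and with Tnfaip3. Alternatives covered pseudocount, filter, scaling, variance model, replicate block, recovered reads and leaving out each library.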

Additional observations from a re-analysis of the deposited data

How the results depend on the processing

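Over 14 alternatives, the calls of Nfkb2 and Tnfaip3 were kept in every one, and Rela, Nfkbib and Nfkbia were called in none. The sign of Nfkbia, which was not called, changed when a library was left out (-0.00868 to 0.0185 on the log2 scale). With CPM of the recovered reads, 5 members were called lower, adding Nfkb1 (-0.10, limma adjusted p = 0.0191) and Relb (-0.17, 0.00974), 1702 genes were higher, and 4 negative regulators were higher. Without the variance trend, 1 member was called higher and 1 lower, with Nfkbiz (0.13, 0.0799), Nfkbie (-0.17, 0.0538) and Rel (-0.12, 0.111) no longer called, and there were 1 higher and 1 lower negative regulators, 2 higher receptors and 6 higher targets. The call of Rel was also lost with upper-quartile scaling (-0.093, 0.0924) and median-ratio scaling (-0.10, 0.0674). With upper-quartile scaling, 1 negative regulator was lower, and with no filter, 1 was higher, 1 lower and 8 targets were higher. The causes were not tested. Leaving out 1 library at a time gave 704 to 883 higher genes (1100 with all), the fewest without transgenic replicate 2 (704) and 3 (721). It gave 0 to 1 higher and 1 to 2 lower negative regulators, 1 to 3 higher receptors, 8 to 11 higher targets, 2 higher and 2 to 3 lower members, and log2 fold changes of -0.14 to -0.11 for Rel and -0.24 to -0.14 for Relb. Libraries with the same replicate number did not deviate together (correlations of deviations from the group means -0.043, -0.013 and 0.032). A weak shared batch would not show in these values, and the labels do not say whether the numbers mark a litter, batch or day. With the replicate block, Rel was not called (-0.12, limma adjusted p = 0.0861), 2 members were higher and 2 lower, 1 negative regulator was higher, and 922 genes were higher and 1457 lower. At 3 libraries a group, differences of a few percent lie within limma's intervals for Rela and Nfkbib.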

Other observations

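Over the 6 libraries, the tested genes whose log2(TPM + 1) values were most like those of Tnfaip3 were Hspa1a (Pearson r = 0.999), Ccl8 (0.999) and H2-T23 (0.998), among 6545 genes of at least 10 TPM. Hspa1a, an inducible heat shock protein gene with a near-identical neighbouring copy, averaged 311 TPM in transgenic and 187 TPM in wild type libraries. Ccl8, a monocyte-attracting chemokine gene, averaged 1079 TPM in transgenic and 727 TPM in wild type libraries. H2-T23, a nonclassical MHC class I gene, averaged 262 TPM in transgenic and 192 TPM in wild type libraries, and related class I genes may share its reads. The points share the split into 2 groups, which sets most of such a correlation, so it is a description only.

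The genes most like Nfkbia were Hdgfl2 (Pearson r = 0.982), the row listed as Mir546 (0.973) and Cct2 (0.968). Like Nfkbia they differed little between the groups. Cct2, a subunit of a cytosolic chaperonin, averaged 101 TPM in transgenic and 101 TPM in wild type libraries.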
